A study of Mus musculus with 8 samples.

Results

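Rosiglitazone treatment of adipocytes carrying an shRNA named sh-PRDM16 was examined on 4 of the 8 arrays of the series, 2 from cells given 1 µM rosiglitazone and 2 from untreated cells, for which the labels give no agent. The arrays were chosen by their titles, which name the PRDM16 shRNA and either the drug or the control. All cells were adipocytes differentiated in culture from stromal-vascular cells of inguinal white fat of male C57BL/6J mice, and by the labels the treated and untreated sh-PRDM16 cells differ in the drug alone. The other 4 arrays, 2 from treated and 2 from untreated cells with the control shRNA sh-scr, entered the fit of the spread and the test of whether the drug response differed between the lines. The question was which genes respond to a PPARγ agonist when the cells carry the knockdown construct.

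Rosiglitazone is a thiazolidinedione that binds PPARγ, the nuclear receptor that drives fat cell differentiation. PPARγ pairs with a retinoid X receptor on direct repeats in DNA and recruits coactivators to genes of lipid uptake, storage and oxidation, and in subcutaneous fat cells prolonged agonist treatment is known to raise genes of thermogenic fat. PRDM16 is a transcriptional coregulator that promotes the brown fat programme and acts with PPARγ and its coactivators. The annotation used pairs Prdm16 itself with no probe set, so the depth of the knockdown was not analysed here, and the labels do not say how the shRNA was delivered or whether the line was a clone.

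Array medians were 109 and 121 in treated cells and 122 and 105 in untreated cells, in units of the deposited linear intensity. Replicate arrays correlated at r = 0.991 over probe sets in each group, against 0.982 between groups, where probe sets are not independent replicates. Of the control probe sets that track RNA quality, those for beta-actin were higher at the 3′ than at the 5′ end by log2 0.33 and 0.34 in treated cells and 0.25 and 0.29 in untreated cells. For Gapdh the same quantity was log2 -0.35 and -0.33 in treated cells and -0.40 and -0.45 in untreated cells, and the part of either difference in the results below was not tested. Replicates are labelled biological, but no label says that cultures or animals were separate, so a p-value here covers the array-to-array spread, which may be technical. Adipocyte markers were present throughout: the summed intensity of 10 defining markers was 59249 and 63863 in treated cells and 50458 and 44205 in untreated cells, with Fabp4 at 20917 and 21799.5 in treated cells, against 19493 and 16409.9 in untreated cells. Macrophage and leukocyte markers summed to 1428 and 1515 in treated cells and 1893 and 1815 in untreated cells over 19 genes, with Itgam and Cd163 below 16 on all 4 arrays. In sh-scr cells the same sum was 8886 and 8553 with rosiglitazone and 12767 and 14138 without, so the lines differed in these markers before any comparison of their drug responses.

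Untreated sh-PRDM16 replicate 2 stood apart from the other 3 arrays of the line in interferon-induced genes. On median-centred arrays 14 genes were log2 1 or more higher on it than on each of the other 3, against 0, 1 and 0 genes for treated replicate 1, treated replicate 2 and untreated replicate 1. Ifit1, which binds viral RNA, read 185 and 241 in treated cells and 190.1 and 1550.3 in untreated cells. Rsad2, which makes an antiviral nucleotide, read 238 and 369 in treated cells and 181 and 976 in untreated cells, and the chemokine Cxcl10 read 56.1 and 79.1 in treated and 67.2 and 334 in untreated cells. Untreated replicate 1 therefore lay with the treated arrays for these genes and replicate 2 lay far above all of them. Of 29 interferon response genes tested, 22 were highest on that array, 1 fell with rosiglitazone (Ifit2, log2 -0.73, SE 0.17, adjusted p = 0.0214) and 1 rose (Bst2, a membrane protein that tethers viruses, log2 0.57, SE 0.13, adjusted p = 0.0196). Falls in limma numbered 8 without untreated replicate 1 (11 with unadjusted p below 0.05) and 0 without untreated replicate 2 (1 with unadjusted p below 0.05), and rises numbered 0 without untreated replicate 1 or treated replicate 2 and 2 without treated replicate 1. The direction of this list therefore rested on single arrays.

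**Figure D1:**
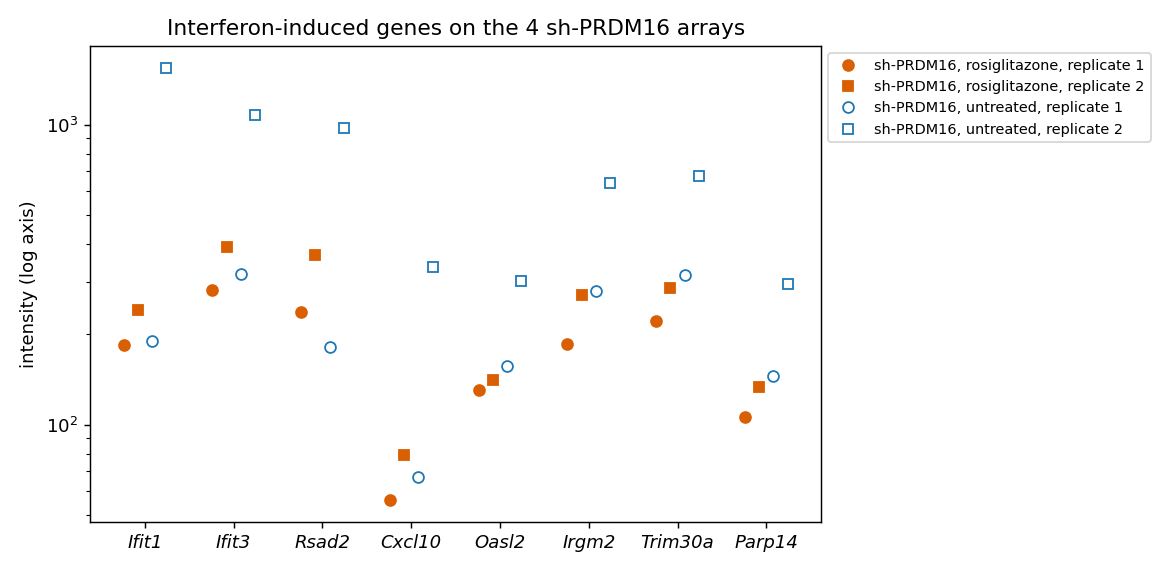
Intensity (log axis) of 8 of those 14 genes on each sh-PRDM16 array, with treated replicates as filled orange symbols and untreated replicates as open blue ones. Untreated replicate 2 is the highest point for each gene, as for Ifit1 at 1550.3, while untreated replicate 1 lies near the treated arrays.

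Of 9294 genes tested, 937 rose (10.1%) and 308 fell (3.31%) with rosiglitazone in sh-PRDM16 cells, on the scale log2(intensity + 16), which understates the change of dim genes. A gene was called when its adjusted p in limma was under 0.05, and every called gene had array groups that did not overlap, as did 27.0% of all tested genes with treated cells higher and 23.6% with treated cells lower. Rises were larger than falls: 290 rises and 37 falls reached log2 1, and 56 rises and 4 falls reached log2 2, with the median over all genes at log2 0.00. With each array centred on its median, 1347 genes rose (14.5%) and 917 fell (9.87%), and 910 of the 937 rises and 297 of the 308 falls were called on both scales. The median standard error was log2 0.15 on the deposited and 0.11 on the centred scale. The rises numbered 534 without untreated replicate 2 and 444 without treated replicate 2. The falls numbered 127 without untreated replicate 1, 113 without treated replicate 1 and 197 without treated replicate 2, and 411 rises and 58 falls were called whichever of the 4 arrays was left out. The direction of the 1245 calls could not change in those fits, because the 2 groups of every called gene do not overlap.

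**Figure D2:**
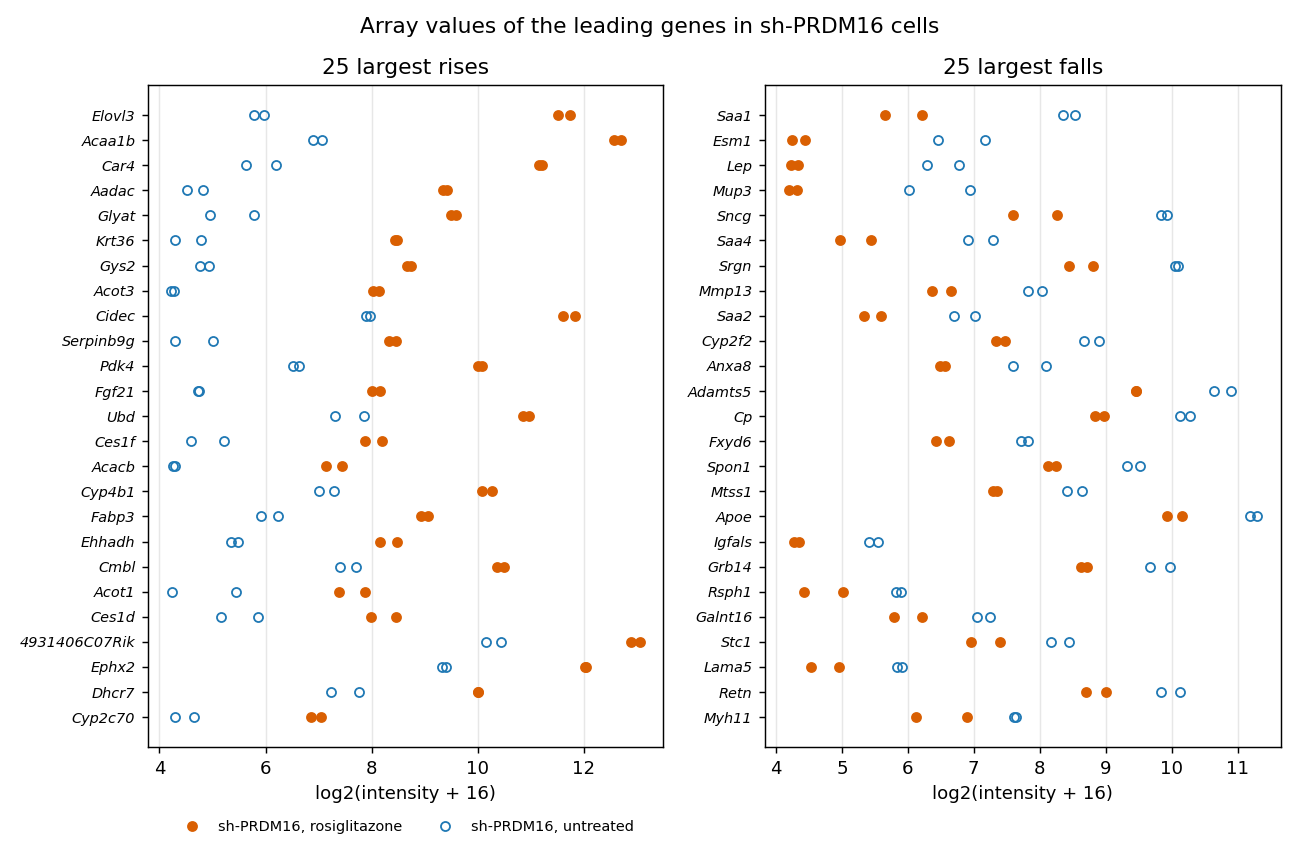
Array values, as log2(intensity + 16), of the 25 genes with the largest rises (left) and the 25 with the largest falls (right) among genes called on both scales, with filled orange points for treated and open blue points for untreated sh-PRDM16 cells. The 2 groups do not overlap for any gene shown, as for every called gene. Rises run from Elovl3 at log2 5.75 to Cyp2c70 at log2 2.48. Falls run from Saa1 at log2 -2.51 to Myh11 at log2 -1.12.

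Gene lists were then read against those shares of 10.1% and 3.31%, and some genes belong to more than 1 list. The lists were written with earlier results of these arrays known, so a share above those of all genes describes a list and tests nothing. Genes of PPAR receptors and their partners changed in part. Of 15 PPAR receptors and partners tested, 6 rose and 1 fell, with a median of log2 0.29. Pparg itself read 1865 and 2047 in treated cells, against 1742 and 1461 in untreated cells, groups that do not overlap but a change of log2 0.29, SE 0.14, adjusted p = 0.224 that did not pass. Ppara, the PPAR isoform of oxidative tissues, read 77.5 and 82.3 in treated cells, against 19.4 and 6.8 in untreated cells, and rose (log2 1.75, SE 0.22, adjusted p = 0.00085). Rxrg, a retinoid X receptor and so a possible partner of PPARs, read 62.4 and 108 in treated cells, against 9.5 and 7.1 in untreated cells (log2 2.02, SE 0.32, adjusted p = 0.00333). The coactivators Ppargc1b and Ppargc1a, which raise mitochondrial genes, both rose. Ppargc1b read 619 and 663 in treated cells, against 154 and 126 in untreated cells (log2 2.08, SE 0.16, adjusted p = 4.82e-05), and Ppargc1a read 126 and 129 in treated cells, against 42.5 and 45.8 in untreated cells (log2 1.25, SE 0.13, adjusted p = 0.000231). Lpin1, a phosphatidate phosphatase that also coactivates PPARα, rose by log2 0.98 and the corepressor Nrip1 by log2 0.61, while Cited2, a CBP-binding transcription cofactor, fell by 0.64 on the log2 scale, a call lost without untreated replicate 1, treated replicate 1 or treated replicate 2. The call of Nrip1 was lost without untreated replicate 2 or treated replicate 2. Rxra (log2 -0.15) and Rxrb (log2 -0.07) did not pass. Among 26 transcription regulators of adipocytes, 4 rose and 1 fell: the liver X receptor Nr1h3 (log2 1.02), Esrra (log2 0.90), a regulator of mitochondrial genes, Srebf1 (log2 0.80), a regulator of lipid synthesis, and Zfp423 (log2 0.57) rose, and the immediate early receptor Nr4a1 fell (log2 -0.75). Without treated replicate 2 there were 2 rises in that list, and on the centred scale 5 rose and 5 fell. Zfp423 lost its call without untreated replicate 2, treated replicate 1 or treated replicate 2. Cebpa (log2 0.47), Cebpb (log2 0.18) and Ebf2 (log2 -0.22) did not pass.

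Known PPAR targets rose in most cases. Of 21 tested, 17 rose and 0 fell, with a median of log2 1.55 against 0.00 for all genes. Acaa1b, a peroxisomal thiolase, read 6087 and 6648 in treated cells, against 103 and 119 in untreated cells, a rise of log2 5.66, SE 0.16, adjusted p = 1.18e-07, and it has a close paralog that can share hybridization. Pdk4, a kinase that restrains the entry of pyruvate into oxidation, read 1019.7 and 1076 in treated cells, against 82.7 and 76.1 in untreated cells (log2 3.48, SE 0.12, adjusted p = 5.67e-07). Fgf21, a secreted regulator of metabolism, read 269 and 241 in treated cells, against 10.4 and 10.9 in untreated cells (log2 3.34, SE 0.20, adjusted p = 1.28e-05). The treated arrays lay far above the untreated ones for all 3 genes, and Fgf21 was below 16 in untreated cells. Fabp3, a fatty acid carrier of oxidative tissues, read 474 and 520.1 in treated cells, against 44.1 and 58.9 in untreated cells (log2 2.93, SE 0.15, adjusted p = 4.23e-06), and Angptl4, an inhibitor of lipoprotein lipase, read 9012 and 8628 in treated cells, against 3006 and 3016 in untreated cells (log2 1.54, SE 0.14, adjusted p = 0.00011). The 4 members that did not pass were Ucp3 (log2 0.28), Fabp4 (log2 0.26), Creb3l3 (log2 0.15) and Lpl (log2 0.04).

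Promoters were searched for the direct repeat that PPAR and retinoid X receptors bind, on both strands, in 300 bases of RefSeq sequence (GRCm38.p6) from 250 before to 50 after the start site. The exact repeat, AGGTCA followed by any base and AGGTCA again, stood in 2 of 7509 tested genes with a promoter sequence, which are neighbours whose windows share the same site, and in 0 of 18 PPAR targets. With the fourth letter of each AGGTCA left free (AGGNCA), a match stood in 20 of 7509 genes (0.266%), in 3 of 772 that rose (0.389%), in 2 of 231 that fell (0.866%) and again in 0 of 18 PPAR targets. With up to 2 of the 12 fixed letters changed, a looser search added after seeing those results, a match stood in 262 of 7509 genes (3.49%). It stood in 40 of 772 genes that rose (5.18%) and in 10 of 231 that fell (4.33%). Among the 25 largest rises and the 25 largest falls, it stood in 2 of 20 and 3 of 19 with a promoter sequence. Of PPAR targets, 6 of 18 held a match (33.3%), against a smaller share, 4 of 16, of those that rose. Whether a match goes with a rise was not tested. The promoters of those 4 rising targets are shown because their genes carry the lipid handling rises described next. Each match is in capitals and the gene's strand is written 5′ to 3′. A match describes letters only and is no measured site.
Aqp7 promoter (chr4:41047913-41048212, minus strand): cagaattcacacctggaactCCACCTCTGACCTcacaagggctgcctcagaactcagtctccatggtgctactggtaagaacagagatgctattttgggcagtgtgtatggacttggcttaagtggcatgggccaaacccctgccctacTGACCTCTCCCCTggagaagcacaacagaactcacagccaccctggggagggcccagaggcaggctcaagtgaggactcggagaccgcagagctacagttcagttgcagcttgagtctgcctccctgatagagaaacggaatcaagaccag
Slc25a20 promoter (chr9:108661886-108662185, plus strand): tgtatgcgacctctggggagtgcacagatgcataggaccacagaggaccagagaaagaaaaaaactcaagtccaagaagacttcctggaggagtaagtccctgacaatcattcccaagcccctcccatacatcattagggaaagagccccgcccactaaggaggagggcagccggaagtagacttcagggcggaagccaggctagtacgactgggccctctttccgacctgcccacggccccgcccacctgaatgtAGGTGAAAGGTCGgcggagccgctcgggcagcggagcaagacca
Plin2 promoter (chr4:86670010-86670309, minus strand): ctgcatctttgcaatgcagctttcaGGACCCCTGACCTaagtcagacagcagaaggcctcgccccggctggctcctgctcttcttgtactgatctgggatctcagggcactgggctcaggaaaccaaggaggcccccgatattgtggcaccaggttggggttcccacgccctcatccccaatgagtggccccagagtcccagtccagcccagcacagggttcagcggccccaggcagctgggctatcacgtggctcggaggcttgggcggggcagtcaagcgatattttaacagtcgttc
Cd36 promoter (chr5:17835847-17836146, minus strand): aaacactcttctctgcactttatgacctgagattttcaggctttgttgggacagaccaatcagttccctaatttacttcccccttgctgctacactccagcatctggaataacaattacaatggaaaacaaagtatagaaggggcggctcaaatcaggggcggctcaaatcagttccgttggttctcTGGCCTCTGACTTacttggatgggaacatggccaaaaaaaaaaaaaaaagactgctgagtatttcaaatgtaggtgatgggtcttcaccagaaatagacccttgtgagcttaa
Aqp7, a channel for glycerol, read 215 and 266 in treated cells, against 84.4 and 52.1 in untreated cells (log2 1.63, SE 0.20, adjusted p = 0.000694), with both of its matches on the strand opposite to the gene. Slc25a20, which carries acylcarnitines into mitochondria, read 4148 and 4106 in treated cells, against 1419 and 1307 in untreated cells (log2 1.59, SE 0.14, adjusted p = 9.34e-05), with its match after the start site. The lipid droplet coat protein Plin2 read 10888 and 11279.9 in treated cells, against 4314 and 4048 in untreated cells (log2 1.40, SE 0.12, adjusted p = 0.000103), and the fatty acid transporter Cd36 read 10592 and 11758 in treated cells, against 4942 and 4276 in untreated cells (log2 1.28, SE 0.14, adjusted p = 0.000328). The groups did not overlap for any of the 4 genes, as for every called gene.

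Most genes of lipolysis and of lipid droplets rose. Of 12 lipolysis genes, 9 rose and 0 fell (median log2 1.58). Pnpla2, the lipase that starts triglyceride breakdown, read 3316 and 3772 in treated cells, against 1040.2 and 910.3 in untreated cells (log2 1.84, SE 0.14, adjusted p = 4.11e-05). Lipe, hormone-sensitive lipase, read 1320.1 and 1617 in treated cells, against 558 and 443 in untreated cells (log2 1.52, SE 0.16, adjusted p = 0.000299). Mgll, which cleaves monoglycerides, read 4339 and 4723 in treated cells, against 1505 and 1207 in untreated cells (log2 1.74, SE 0.15, adjusted p = 0.000115), and Abhd5, which activates PNPLA2, read 2940.4 and 3106 in treated cells, against 1434 and 1245 in untreated cells (log2 1.17, SE 0.13, adjusted p = 0.000411). Hcar2, a receptor that restrains lipolysis, also rose, at 134 and 164 in treated cells, against 26.3 and 43.3 in untreated cells (log2 1.72, SE 0.18, adjusted p = 0.000328). The carboxylesterases Ces1f (log2 3.14) and Ces1d (log2 2.71) are close paralogs whose probe sets may share signal. Of 12 lipid droplet proteins 7 rose and 0 fell. Cidec, which enlarges droplets, read 3104 and 3648 in treated cells, against 234 and 222 in untreated cells (log2 3.79, SE 0.14, adjusted p = 5.67e-07). Plin5, a droplet protein that tethers mitochondria, read 202 and 263 in treated cells, against 39.6 and 22.1 in untreated cells (log2 2.42, SE 0.20, adjusted p = 8.14e-05), and G0s2, an inhibitor of PNPLA2, rose by log2 0.88, whereas Plin3 (log2 0.40) and Plin4 (log2 0.22) did not pass.

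Of 17 genes of fatty acid uptake and activation, 10 rose and 0 fell (median log2 0.64), or 6 without untreated replicate 2 and 5 without treated replicate 2. The transporter Slc27a1 read 531 and 551 in treated cells, against 99.5 and 77 in untreated cells (log2 2.43, SE 0.15, adjusted p = 1.64e-05), and the VLDL receptor Vldlr (log2 1.10), the acyl-CoA binding protein Dbi (log2 0.88) and the carrier Fabp5 (log2 0.64) rose less. Of 17 genes of glycerol and triglyceride synthesis, 7 rose and 0 fell (median log2 0.35). Gpd1, which makes glycerol 3-phosphate, read 3316 and 3995 in treated cells, against 782 and 718 in untreated cells (log2 2.26, SE 0.16, adjusted p = 2.86e-05), and Dgat1, which forms triglyceride, read 3053 and 3548 in treated cells, against 1523 and 1263 in untreated cells (log2 1.24, SE 0.15, adjusted p = 0.000577). Pck1, which feeds glyceroneogenesis, rose by log2 0.65, a call lost without untreated replicate 1, treated replicate 1 or treated replicate 2. Agpat3 rose by log2 1.55. Dgat2, the other triglyceride-forming enzyme, read 2115 and 2259.8 in treated cells, against 1819 and 1562 in untreated cells and did not pass on the deposited scale (log2 0.37, SE 0.13, adjusted p = 0.101), though it did on the centred scale (log2 0.35, adjusted p = 0.00967).

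Peroxisomal genes rose in both enzymes and assembly factors. Of 29 peroxisomal enzymes, 18 rose and 0 fell (1 fell on the centred scale, median log2 0.96), and of 13 peroxins 7 rose and 0 fell (median log2 0.59). Ehhadh, the bifunctional enzyme of peroxisomal oxidation, read 271 and 343 in treated cells, against 24.9 and 28.4 in untreated cells (log2 2.91, SE 0.15, adjusted p = 4.23e-06), and Ephx2, an epoxide hydrolase, read 4166 and 4194 in treated cells, against 663 and 625 in untreated cells (log2 2.67, SE 0.13, adjusted p = 3.92e-06). Cat, catalase, read 7296 and 8549 in treated cells, against 4294 and 3296 in untreated cells (log2 1.07, SE 0.16, adjusted p = 0.00271), a smaller rise. Pex16, which inserts peroxisomal membrane proteins, read 1531 and 1588 in treated cells, against 511 and 485 in untreated cells (log2 1.62, SE 0.12, adjusted p = 4.56e-05), and the import receptor Pex5 rose by log2 1.20 and Pex3 by log2 1.14. The peroxisomal transporters Abcd2 (log2 1.60) and Abcd3 (log2 1.38) rose, while Acaa1a (log2 0.46), Crot (log2 0.25) and Phyh (log2 0.28) did not pass. Of 11 acyl-CoA thioesterases, which release free fatty acids from coenzyme A, 8 rose and 0 fell (median log2 1.03). Acot3 read 266 and 244 in treated cells, against 2.7 and 3.3 in untreated cells (log2 3.83, SE 0.26, adjusted p = 2.4e-05) and Acot1 read 219.7 and 151 in treated cells, against 27.6 and 2.8 in untreated cells (log2 2.79, SE 0.33, adjusted p = 0.000602). Acot1, Acot3, Acot4 (log2 2.19) and Acot5 (log2 2.03) are close paralogs that may share signal, so which of them carried it is uncertain.

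Mitochondrial fatty acid oxidation had 20 of 24 genes up and 0 down, with a median of log2 1.09. Acaa2, the last enzyme of the oxidation spiral, read 2239 and 2722 in treated cells, against 702 and 621 in untreated cells (log2 1.88, SE 0.15, adjusted p = 6.53e-05). Hadha and Hadhb encode the trifunctional protein. Hadha read 2200.4 and 2503 in treated cells, against 921 and 759.7 in untreated cells (log2 1.47, SE 0.14, adjusted p = 0.000195), and Hadhb read 6989 and 7485 in treated cells, against 2500.1 and 2297 in untreated cells (log2 1.59, SE 0.14, adjusted p = 0.000108). The very-long-chain dehydrogenase Acadvl read 3246 and 3509 in treated cells, against 1338 and 1191 in untreated cells (log2 1.41, SE 0.13, adjusted p = 0.000171). The carnitine transferase Cpt2, which restores acyl-CoA inside mitochondria, read 1690.0 and 1991 in treated cells, against 751 and 778 in untreated cells (log2 1.25, SE 0.14, adjusted p = 0.000475). Its outer-membrane counterpart Cpt1a rose by log2 0.64, a call lost without untreated replicate 2 or treated replicate 2. Acads (log2 1.00), Acadm (log2 1.04) and Acadl (log2 1.06), the dehydrogenases for short, medium and long chains, rose too, whereas the ketone body enzymes Oxct1 (log2 0.11) and Bdh1 (log2 0.10) did not pass.

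Of 29 genes of the TCA cycle and pyruvate entry, 23 rose and 0 fell (median log2 0.79), or 15 without untreated replicate 2 and 14 without treated replicate 2. Idh3a, a catalytic subunit of isocitrate dehydrogenase, read 6321 and 7243 in treated cells, against 2657 and 2369.5 in untreated cells (log2 1.43, SE 0.14, adjusted p = 0.000172). Mpc1, a subunit of the mitochondrial pyruvate carrier, read 6446 and 6798 in treated cells, against 2959.5 and 2704 in untreated cells (log2 1.22, SE 0.14, adjusted p = 0.000413). Pdhb, a pyruvate dehydrogenase subunit, read 6617 and 7181 in treated cells, against 2830.1 and 2459 in untreated cells (log2 1.38, SE 0.13, adjusted p = 0.000186), so subunits of the dehydrogenase rose alongside Pdk4, the kinase that inhibits it. Cs, citrate synthase, rose by log2 0.81, and Idh2 (log2 -0.16) did not pass.

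Respiratory chain genes rose with smaller median changes. Of 33 complex I genes, 27 rose and 0 fell (median log2 0.68), and all 33 changes were positive. Ndufb10, an accessory subunit, read 3963 and 4688 in treated cells, against 2216 and 2119 in untreated cells (log2 0.99, SE 0.14, adjusted p = 0.00144), and Ndufs1, the large iron-sulfur subunit, read 2158 and 2261 in treated cells, against 1299 and 1086 in untreated cells (log2 0.89, SE 0.14, adjusted p = 0.00385). Each treated array lay above each untreated one, as for every called rise. Of 45 genes of complexes II to V, 28 rose and 0 fell (median log2 0.52). Cox7a1, a cytochrome oxidase isoform of muscle and brown fat, read 566 and 720.0 in treated cells, against 133 and 143 in untreated cells (log2 2.09, SE 0.17, adjusted p = 6.63e-05), well above the next in size, the Rieske protein Uqcrfs1, which read 6271 and 7147 in treated cells, against 3148 and 2618 in untreated cells (log2 1.22, SE 0.14, adjusted p = 0.000544). Cycs, cytochrome c, rose by log2 0.93. Complex I rises numbered 17 without untreated replicate 2 and 10 without treated replicate 2, and those of complexes II to V 16 and 12 without the same arrays and 17 without treated replicate 1.

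Genes of the mitochondrial ribosome rose in part, and those of the cytosolic ribosome gave no call. Of 74 mitochondrial ribosomal genes, 35 rose and 0 fell on the deposited scale (median log2 0.44) and 57 rose on the centred scale. Mrpl1 read 965 and 1105 in treated cells, against 379 and 316 in untreated cells (log2 1.53, SE 0.14, adjusted p = 0.000172), and Mrpl47 read 1602 and 1745 in treated cells, against 689 and 658 in untreated cells (log2 1.29, SE 0.13, adjusted p = 0.000224). The count was 18 without untreated replicate 2, 22 without treated replicate 1 and 12 without treated replicate 2. Of 43 cytosolic ribosomal genes, 0 passed in limma and 0 had an unadjusted p under 0.05, with a median of log2 0.02. Rpl39 had the highest change of that list, log2 0.92 (adjusted p = 0.229), at 156 and 179 in treated cells, against 48.5 and 128 in untreated cells. Of 34 proteasome genes 7 rose (20.6% of the list, median log2 0.21), 12 rose on the centred scale, and 2, 2 and 1 rose without untreated replicate 2, treated replicate 1 and treated replicate 2.

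**Figure D3:**
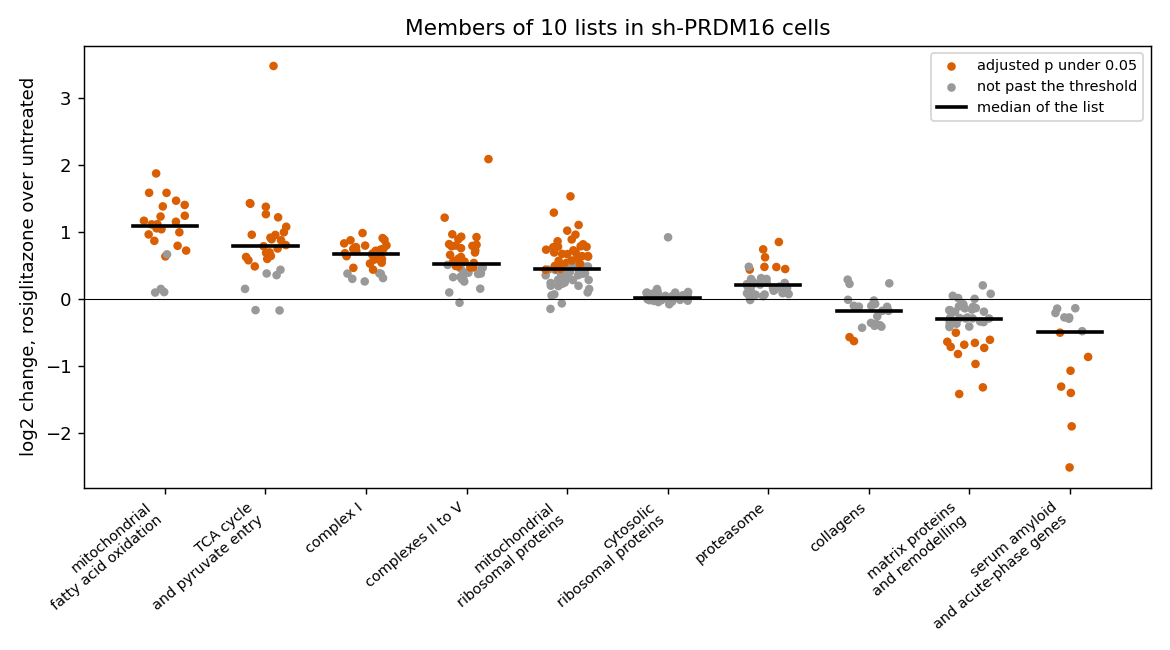
Log2 changes, rosiglitazone over untreated, of the tested members of 10 gene lists in sh-PRDM16 cells, with called genes in orange, the others in grey and a bar at each list's median. The medians range from 1.09 for mitochondrial fatty acid oxidation to -0.49 for serum amyloid and acute-phase genes. Between them lie 0.68 for complex I, 0.02 for cytosolic ribosomal proteins and 0.21 for the proteasome.

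Among 32 mitochondrial carriers, 12 rose and 1 fell (2 fell on the centred scale, and 6 rose without untreated replicate 2 and also without treated replicate 2). Besides Slc25a20 and Ucp1, the carrier Slc25a44, which brings branched-chain amino acids into brown fat mitochondria, read 518 and 618 in treated cells, against 291 and 250.0 in untreated cells (log2 1.02, SE 0.15, adjusted p = 0.00227), while Slc25a30 fell (log2 -0.61), a call lost whichever array was left out. Of 21 genes of branched-chain amino acid catabolism, 5 rose and 0 fell, and on the centred scale 12 rose and 1 fell. Bckdhb, a subunit of the committing dehydrogenase, rose by log2 1.52, and Hibadh, an enzyme of valine breakdown, by log2 1.16. The count was 3 without untreated replicate 2 and 3 without treated replicate 2. Of 25 genes of mitochondrial biogenesis and dynamics, 12 rose and 0 fell. Opa1, which fuses inner membranes, rose by log2 1.01, but Tfam, which packages mitochondrial DNA, did not pass (log2 0.13). The count fell to 4 without untreated replicate 2 and 2 without treated replicate 2.

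**Figure D4:**
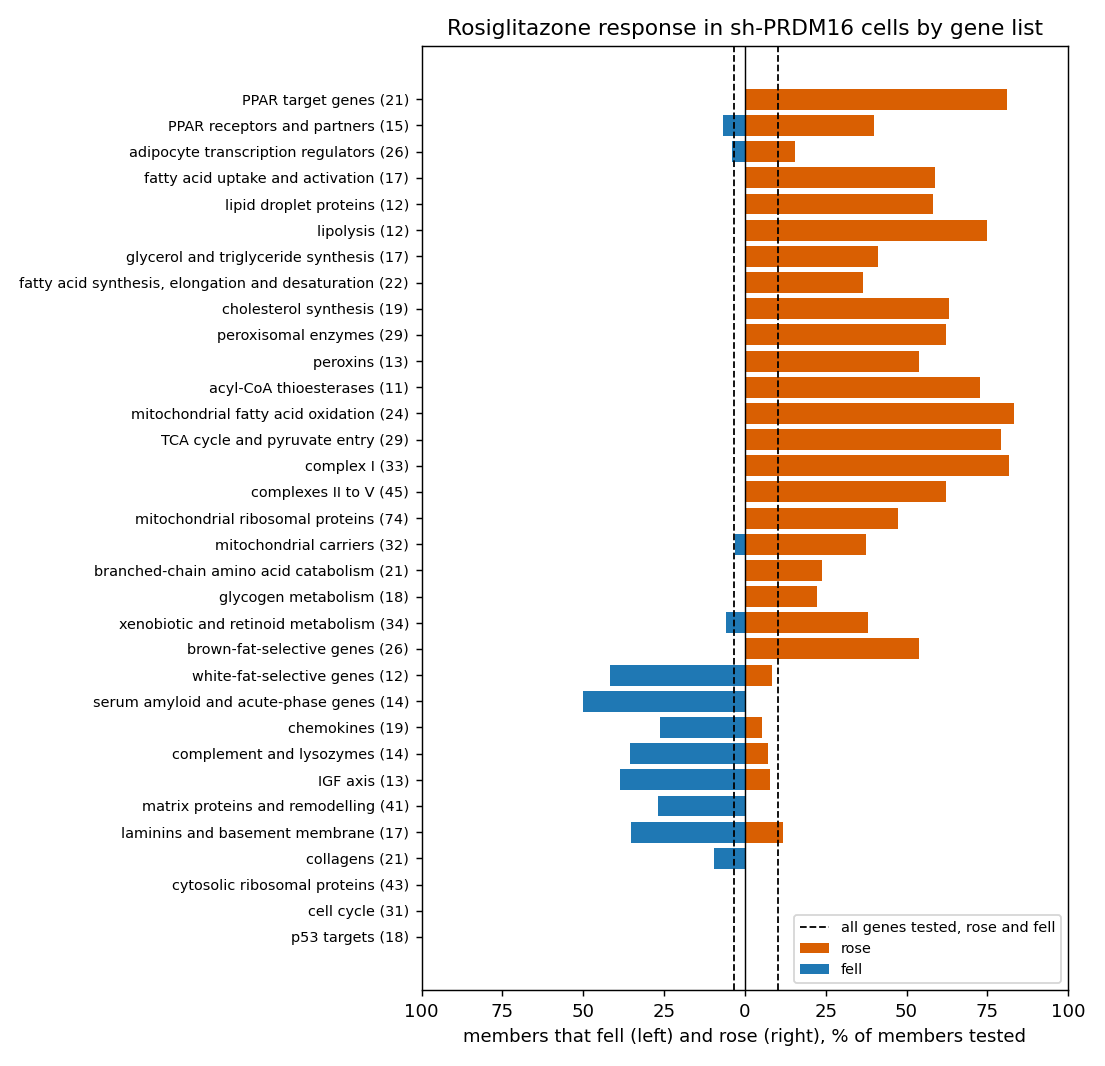
Share of the tested members of 33 gene lists that rose (right, orange) or fell (left, blue) with rosiglitazone in sh-PRDM16 cells, with the number tested in brackets and dashed lines at the shares of all 9294 genes, 10.1% and 3.31%. Mitochondrial fatty acid oxidation (83.3%), complex I (81.8%) and PPAR targets (81.0%) have the longest bars to the right, and serum amyloid and acute-phase genes (7 of 14) the longest to the left.

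Genes of lipid synthesis rose in part. Of 19 cholesterol synthesis genes, 12 rose and 0 fell (median log2 0.63), or 6 without treated replicate 2. Dhcr7, the last enzyme of the pathway, read 1017 and 1013 in treated cells, against 203 and 135 in untreated cells (log2 2.50, SE 0.20, adjusted p = 7.16e-05). Lss, lanosterol synthase, read 886 and 1097 in treated cells, against 210.3 and 260.3 in untreated cells (log2 2.00, SE 0.17, adjusted p = 8.14e-05), and Hmgcs1, which makes HMG-CoA, read 8284 and 9440.5 in treated cells, against 3904 and 3248 in untreated cells (log2 1.31, SE 0.14, adjusted p = 0.000411). Their regulator Srebf2 (log2 0.11) and Sqle (log2 0.22) did not pass. Of 22 genes of fatty acid synthesis, elongation and desaturation, 8 rose and 0 fell, and 13 rose on the centred scale. Elovl3, an elongase of brown fat and skin, read 2925 and 3398 in treated cells, against 39 and 46.9 in untreated cells (log2 5.75, SE 0.16, adjusted p = 1.18e-07). Acacb, the carboxylase whose product restrains fatty acid entry into mitochondria, read 126 and 157 in treated cells, against 3 and 3.5 in untreated cells (log2 3.03, SE 0.14, adjusted p = 3.4e-06), and Mlycd, which removes that product, rose too (log2 1.48). Fasn (log2 0.33), Scd1 (log2 0.08) and Acaca (log2 0.63) did not pass.

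Some genes of glucose storage and breakdown rose. Of 18 glycogen genes, 4 rose (22.2%) and 0 fell (2 rose without treated replicate 2). Gys2, the glycogen synthase isoform of liver and fat, read 389 and 411 in treated cells, against 11.1 and 14.5 in untreated cells (log2 3.85, SE 0.19, adjusted p = 4.04e-06), whereas the muscle isoform Gys1 did not pass (log2 0.57). Of 18 glycolysis genes 4 rose (22.2%), 7 rose on the centred scale, and 2 did without untreated replicate 2, treated replicate 1 or treated replicate 2. Ldhb, a lactate dehydrogenase subunit, rose by log2 1.15 and Slc16a1, a lactate transporter, by log2 0.98. In insulin signalling 1 of 23 genes rose and 1 fell on the deposited scale, and 3 rose and 5 fell on the centred scale. The adaptor Irs2 read 201 and 199.6 in treated cells, against 68.8 and 50.3 in untreated cells (log2 1.53, SE 0.24, adjusted p = 0.00328). Grb14, which binds and inhibits the insulin receptor, read 378 and 406 in treated cells, against 992 and 796 in untreated cells (log2 -1.15, SE 0.15, adjusted p = 0.00104). Slc2a4, the insulin-responsive glucose transporter, changed by log2 0.29 (adjusted p = 0.328).

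Several of the largest rises belonged to detoxifying and retinoid enzymes, though the median of their list was log2 0.01, with 18 of 34 changes positive. Of 34 genes of xenobiotic and retinoid metabolism, 13 rose and 2 fell (1 fell without untreated replicate 1, treated replicate 1 or treated replicate 2, and 4 fell on the centred scale). Aadac, an arylacetamide deacetylase, read 668 and 639.6 in treated cells, against 7 and 12.4 in untreated cells (log2 4.71, SE 0.17, adjusted p = 5.67e-07). Glyat, which conjugates acyl groups to glycine, read 704 and 754 in treated cells, against 39 and 15.1 in untreated cells (log2 4.17, SE 0.25, adjusted p = 1.14e-05), while its other probe sets gave log2 3.72 (adjusted p = 0.000892) and, on a dim one, log2 0.49 (adjusted p = 0.17). Cyp4b1, a cytochrome P450, read 1069 and 1214 in treated cells, against 139.9 and 113 in untreated cells (log2 3.02, SE 0.15, adjusted p = 4.04e-06). Retinoid genes were among the rises: the alcohol dehydrogenase Adh1 read 2953 and 3497 in treated cells, against 590.2 and 555 in untreated cells (log2 2.46, SE 0.15, adjusted p = 1.51e-05), the saturase Retsat read 1090.1 and 1216 in treated cells, against 239 and 226 in untreated cells (log2 2.23, SE 0.13, adjusted p = 1.21e-05) and the binding protein Rbp7 read 84.8 and 52.5 in treated cells, against 3.8 and 2.1 in untreated cells (log2 2.13, SE 0.22, adjusted p = 0.000299). Cyp2f2, a P450 best known from lung, fell to 161 and 145 in treated cells, against 463 and 391 in untreated cells (log2 -1.39, SE 0.18, adjusted p = 0.000995). Car4, a membrane-bound carbonic anhydrase, read 2362 and 2266 in treated cells, against 57.2 and 33.4 in untreated cells (log2 5.28, SE 0.20, adjusted p = 7.32e-07). It led 4 rises and 1 fall among 10 carbonic anhydrases, with the mitochondrial Car5b at log2 1.37 and the abundant fat cell isoform Car3 at log2 -0.56, which passed neither without untreated replicate 1 nor without untreated replicate 2 nor without treated replicate 1. Of 24 antioxidant genes 7 rose and 1 fell, and 3 rose without treated replicate 2. The mitochondrial peroxidase Prdx3 (log2 1.27) and dismutase Sod2 (log2 0.74) rose, and secreted Gpx3 fell (log2 -0.54), a call lost without untreated replicate 1, treated replicate 1 or treated replicate 2. On the centred scale 3 antioxidant genes fell.

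The remaining leading rises were of mixed function. Krt36, a hair keratin, read 330.4 and 341 in treated cells, against 3.6 and 11.7 in untreated cells (log2 3.92, SE 0.20, adjusted p = 4.23e-06), and Krt19, a keratin of simple epithelia and mesothelium, read 864 and 784 in treated cells, against 251 and 221 in untreated cells (log2 1.74, SE 0.18, adjusted p = 0.000263). Ubd, a ubiquitin-like modifier, read 1841 and 1992 in treated cells, against 215 and 143 in untreated cells (log2 3.33, SE 0.18, adjusted p = 7.05e-06). Serpinb9g, a protease inhibitor of a family with close paralogs, read 306 and 335 in treated cells, against 3.6 and 16.4 in untreated cells (log2 3.74, SE 0.21, adjusted p = 9.41e-06). Of the 5 mesothelium and mammary markers tested, only 2 had positive changes, Krt19 and Krt18 (log2 0.80), and the median was log2 -0.10. The Krt18 call was lost without untreated replicate 2, treated replicate 1 or treated replicate 2. Epcam and Cdh1 were below 16 on all 4 arrays. The summed level of the 12 measured was 1056 and 1023 in treated cells and 444 and 375 in untreated cells, most of it from Krt19 on each array. The part of such cells in other rises was not tested. The hydrolase Cmbl (log2 2.87), 4931406C07Rik (log2 2.68) and the P450 Cyp2c70 (log2 2.48) completed the 25 largest rises. Of the 50 leading genes, 15 had 23 further probe sets, of which 21 moved the same way, 15 of them past the threshold, and 2 moved the other way without passing.

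Many thermogenic genes rose in the knockdown line, and Ucp1 and Cidea rose less there than in sh-scr cells. Among 26 genes selective for brown fat, 14 rose with 0 falls (median log2 0.87), and of 9 beige markers 4 rose and 0 fell (median log2 0.05). On the centred scale 1 gene of each list fell. Ucp1, the uncoupling protein of brown fat, read 81.9 and 101 in treated cells, against 4.6 and 3.4 in untreated cells (log2 2.42, SE 0.23, adjusted p = 0.000164), and in sh-scr cells it read 1296 and 1322 with the drug and 5.2 and 20.6 without. Cidea, a droplet protein abundant in brown fat, read 29.8 and 35.1 in treated cells, against 2.3 and 1.6 in untreated cells (log2 1.43, SE 0.16, adjusted p = 0.000509), and in sh-scr cells 510.5 and 585 with the drug and 14 and 24.2 without. The rise was smaller in sh-PRDM16 cells by a tested difference of log2 -3.46 for Ucp1 (95% interval -4.20 to -2.73, adjusted p = 0.0357) and log2 -2.90 for Cidea (-3.38 to -2.41, adjusted p = 0.0216), both on the centred scale. Untreated cells of both lines read these genes dimly, which makes both sizes sensitive to the pseudocount. Cox8b, a cytochrome oxidase isoform of brown fat, read 16.4 and 24.3 in treated cells, against 5.2 and 20.5 in untreated cells, overlapping groups that did not pass (log2 0.38, adjusted p = 0.342). Dio2, which activates thyroid hormone, read 106 and 93.8 in treated cells, against 119.9 and 112 in untreated cells and did not pass (log2 -0.19). For Cox8b the centred difference between the lines was log2 -1.95 (-2.95 to -0.95, adjusted p = 0.136), and for Dio2 it was log2 -1.0 (-1.37 to -0.62, adjusted p = 0.0854), so neither difference passed.

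For other thermogenic genes no difference between the lines passed on the centred scale, which does not show that they responded alike. The centred difference was log2 -0.28 for Cox7a1 (-0.84 to 0.29), log2 -0.51 for Ppargc1a (-0.91 to -0.11) and log2 -0.61 for Ppara (-1.34 to 0.12). For Pdk4 it was log2 -0.34 (-0.58 to -0.10), for Fabp3 log2 0.06 (-0.47 to 0.59) and for Fgf21 log2 0.01 (-0.71 to 0.74). For Elovl3 it was log2 1.17 (0.65 to 1.68, adjusted p = 0.104), while the deposited scale gave log2 1.48 (adjusted p = 0.0331). Clstn3 (log2 1.57), Kcnk3 (log2 1.09), Letmd1 (log2 0.93) and Oplah (log2 1.10), also brown-fat-selective, rose in sh-PRDM16 cells, as did the beige markers Cited1 (log2 1.67) and P2rx5 (log2 0.65). P2rx5 lost its call without untreated replicate 2 or treated replicate 2, and Kcnk3 without treated replicate 2. Tbx1 (log2 0.05) and Lhx8 (log2 -0.42) did not pass.

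**Figure D5:**
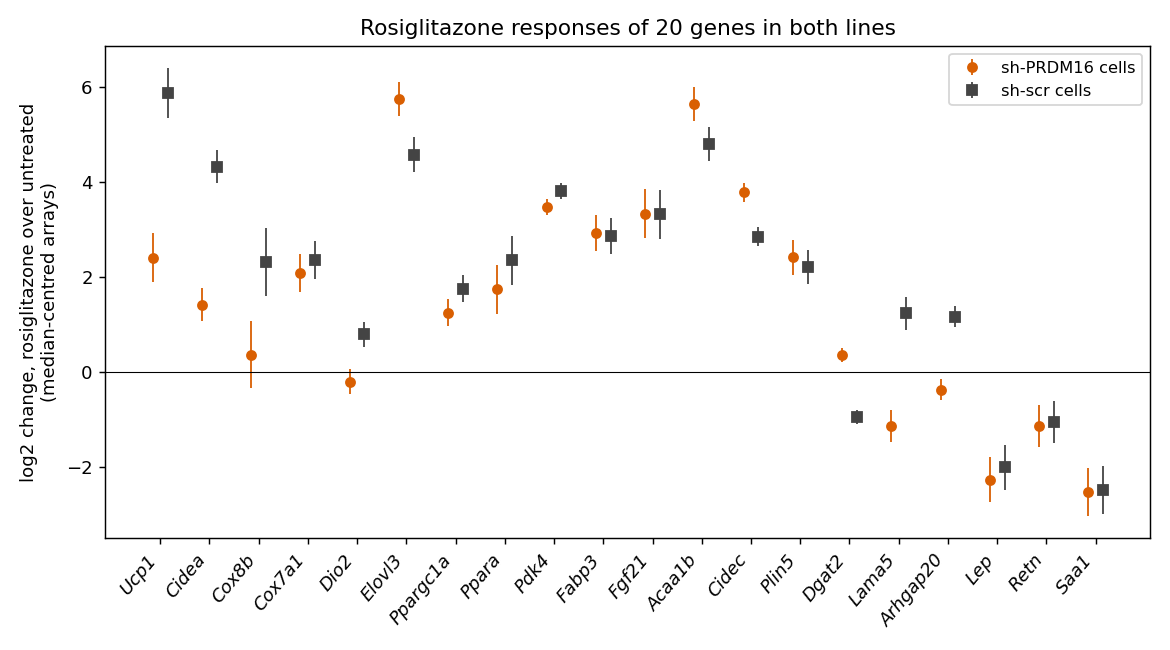
Log2 change with rosiglitazone on median-centred arrays for 20 genes, in sh-PRDM16 cells (orange circles) and sh-scr cells (dark squares), with 95% intervals from limma. Ucp1 and Cidea rise less in sh-PRDM16 cells (2.40 against 5.86, and 1.41 against 4.31), while the differences of Fabp3 (0.06) and Fgf21 (0.01) have intervals that span 0.

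Across all genes the difference of the responses passed for 62 on the deposited scale (0.667%), 56 more positive (0.603%) and 6 more negative (0.0646%) in sh-PRDM16 cells, where its median over all genes was log2 0.33, and for 5 on the centred scale (0.0538%), 1 more positive (0.0108%) and 4 more negative (0.0430%), where its median was 0.02. Ucp1, Cidea, Lama5 and Arhgap20 were the more negative and Dgat2 the more positive of the 5. Lama5, a laminin chain of basement membranes, read 7.1 and 15.2 in treated cells, against 41.3 and 44.1 in untreated cells, and in sh-scr cells 44.7 and 37.3 with the drug and 14.9 and 12.6 without. It fell in sh-PRDM16 cells (log2 -1.13, SE 0.16, adjusted p = 0.00197) and rose in sh-scr cells (log2 0.94, adjusted p = 0.00477; centred difference log2 -2.38, adjusted p = 0.0357), on a dim probe set whose partner gave log2 0.38 (adjusted p = 0.766) in sh-PRDM16 cells. Arhgap20, a GTPase-activating protein, read 84.7 and 87.9 in treated cells, against 129 and 104 in untreated cells, and in sh-scr cells 112 and 121 with the drug and 57.4 and 56.4 without (difference log2 -1.53, adjusted p = 0.0357). Dgat2 in sh-scr cells read 1383 and 1328 with the drug and 3114 and 3339 without (difference log2 1.30, adjusted p = 0.0216). On the deposited scale limma called 0 genes without untreated sh-PRDM16 replicate 2 (1453 with unadjusted p below 0.05), against 14 to 73 without any other array. On the centred scale 3 and 2 passed without the untreated sh-scr replicates 1 and 2, and 0 without any of the other 6 arrays (1027 to 1194 at an unadjusted p under 0.05).

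Hormones and markers of white fat fell in part. Of 12 white-fat-selective genes, 5 fell and 1 rose, the cell cycle regulator Rb1 (log2 0.71), a call lost without untreated replicate 2, treated replicate 1 or treated replicate 2. Lep, which encodes leptin, read 4.1 and 2.8 in treated cells, against 94.2 and 62.6 in untreated cells (log2 -2.26, SE 0.22, adjusted p = 0.000198), and Retn, which encodes resistin, read 401 and 498 in treated cells, against 899.9 and 1101 in untreated cells (log2 -1.13, SE 0.17, adjusted p = 0.00279). Sncg, a synuclein of white fat, read 178 and 291 in treated cells, against 962 and 901 in untreated cells (log2 -1.96, SE 0.20, adjusted p = 0.000292). Adipoq, which encodes adiponectin, read 13672 and 14230.4 in treated cells, against 10994 and 9965 in untreated cells, apart but not past the threshold (log2 0.41, SE 0.12, adjusted p = 0.0582). Of 20 adipokines and secreted factors 4 rose and 2 fell. After Fgf21 and Angptl4 the rises were those of Nrg4, a growth factor of brown fat, and Vegfb (log2 0.60). Nrg4 read 62.6 and 89.4 in treated cells, against 44.1 and 32.7 in untreated cells (log2 0.75, SE 0.17, adjusted p = 0.0214 in limma). It lost its call without untreated replicate 2 or treated replicate 2, and Vegfb whichever of the 4 arrays was left out.

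Serum amyloid and other acute-phase genes fell in part. Of 14 tested, 7 fell and 0 rose, and all 14 changes were negative (median log2 -0.49). Saa1, a serum amyloid, read 58 and 34.4 in treated cells, against 355 and 311 in untreated cells (log2 -2.51, SE 0.18, adjusted p = 3.37e-05). Saa2 (log2 -1.40) is near-identical to Saa1, so their signals may be shared, and Saa4 read 15.4 and 27.7 in treated cells, against 141 and 105 in untreated cells (log2 -1.90, SE 0.21, adjusted p = 0.000447). Cp, the copper carrier ceruloplasmin, read 440.4 and 486 in treated cells, against 1227 and 1107 in untreated cells (log2 -1.30, SE 0.16, adjusted p = 0.000832). The endotoxin-binding Lbp read 835 and 939 in treated cells, against 1986 and 1767 in untreated cells (log2 -1.07, SE 0.13, adjusted p = 0.000795), the iron-scavenging Lcn2 read 489 and 489.6 in treated cells, against 1033 and 788 in untreated cells (log2 -0.86, SE 0.15, adjusted p = 0.0053), and haptoglobin, Hp, fell by 0.50 on the log2 scale, a call lost whichever of the 4 arrays was left out. Saa3 (log2 -0.29) and Orm1 (log2 -0.14) did not pass.

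Some chemokine, complement and IL-6 family genes fell. Of 19 chemokines 5 fell and 1 rose, with 3 falls without treated replicate 1 and 2 without treated replicate 2. The rise, of Cxcl9 (log2 0.69), an interferon-induced chemokine, was lost without untreated replicate 1, untreated replicate 2 or treated replicate 2, and 2 chemokines rose on the centred scale. Cxcl12, a stromal chemokine, read 3239 and 3462 in treated cells, against 6411 and 5604 in untreated cells (log2 -0.84, SE 0.13, adjusted p = 0.00279), and Cxcl13, which attracts B cells, fell by 0.94 on the log2 scale. Of 14 complement genes and lysozymes 5 fell and 1 rose (2 fell without treated replicate 1). The rise, of the C3a receptor C3ar1 (log2 0.78), was not called on the centred scale, nor without untreated replicate 1, treated replicate 1 or treated replicate 2. Cd55, which restrains complement, read 115 and 133 in treated cells, against 252 and 221 in untreated cells (log2 -0.85, SE 0.16, adjusted p = 0.00758), and the lysozyme Lyz2, also a macrophage marker, read 121 and 139 in treated cells, against 234 and 236 in untreated cells (log2 -0.78, SE 0.13, adjusted p = 0.00362). Of 18 genes of the IL-6 family and its feedback, Il11 (log2 -0.72) and Lif (log2 -0.68) fell on the deposited scale, 11 fell on the centred scale, and limma called 0 on the deposited scale without untreated replicate 1 or treated replicate 2 (4 and 6 fell at an unadjusted p under 0.05). Il6 (log2 -0.63) and Socs3 (log2 -0.26) did not pass. Of 17 macrophage and leukocyte markers 1 rose and 2 fell, with 4 falls on the centred scale, 3 without untreated replicate 1, 1 without untreated replicate 2 or treated replicate 1, and 5 without treated replicate 2. The part of such cells in these falls was not tested.

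Several binding proteins of Igf1, a growth factor made by fat, fell, while the rise of Igf1 itself was a call that depended on every array. Of 13 tested 5 fell and 1 rose. Igf1 rose, at 2658 and 2999 in treated cells, against 2053 and 1853 in untreated cells (log2 0.53, SE 0.14, adjusted p = 0.0405), while 4 of its binding proteins fell. Igfbp4, which holds IGF1 from its receptor, read 1756 and 2055 in treated cells, against 3998 and 3469 in untreated cells (log2 -0.97, SE 0.15, adjusted p = 0.00283), and Igfbp2 (log2 -0.81), Igfbp5 (log2 -0.61) and Igfbp6 (log2 -0.54) also fell. Igf1 and Igfbp5 lost their calls whichever of the 4 arrays was left out. Igfbp6 lost its call without untreated replicate 1, treated replicate 1 or treated replicate 2, and Igfbp2 without untreated replicate 1 or treated replicate 2. Igfals, which holds IGF in a circulating complex, read 3.4 and 4.5 in treated cells, against 26.8 and 30.8 in untreated cells (log2 -1.17, SE 0.13, adjusted p = 0.00036). The falls numbered 2 without untreated replicate 1 and 3 without treated replicate 1 or treated replicate 2. Of 34 Wnt and TGF-beta genes 5 fell and 0 rose, and 13 fell on the centred scale. Sfrp4, a secreted Wnt antagonist, read 243 and 306 in treated cells, against 606 and 573 in untreated cells (log2 -1.07, SE 0.15, adjusted p = 0.00165), and its relative Sfrp1 (log2 -0.60), the latent TGF-beta binder Ltbp2 (log2 -0.70), the receptor Tgfbr1 (log2 -0.57) and Fst (log2 -0.50) also fell. The count was 2 without untreated replicate 1, 1 without treated replicate 1 and 2 without treated replicate 2.

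Part of the matrix genes fell, among them proteases and proteoglycans, and none rose. Of 41 matrix and remodelling genes 11 fell and 0 rose (median log2 -0.29), 23 fell on the centred scale, and 5 fell without treated replicate 1. Mmp13, a collagenase, read 66.9 and 85 in treated cells, against 246 and 211 in untreated cells (log2 -1.41, SE 0.17, adjusted p = 0.000659). Adamts5, an aggrecan protease, read 688 and 689 in treated cells, against 1902 and 1585 in untreated cells (log2 -1.31, SE 0.14, adjusted p = 0.000336), and Mmp3, stromelysin, read 634 and 693 in treated cells, against 1468 and 1169 in untreated cells (log2 -0.97, SE 0.17, adjusted p = 0.00561). The calcification inhibitor Mgp read 731 and 826 in treated cells, against 1399 and 1365 in untreated cells (log2 -0.82, SE 0.13, adjusted p = 0.00375), and the proteoglycan Lum read 254 and 271 in treated cells, against 456 and 404 in untreated cells (log2 -0.68, SE 0.13, adjusted p = 0.00875), a call lost without treated replicate 1. Of 21 collagens 2 fell, Col12a1 (log2 -0.57) and Col14a1 (log2 -0.62), a share of 9.52%, and 5 fell on the centred scale. In the same test limma called 0 collagens without untreated replicate 1 or treated replicate 1 (3 and 5 fell with unadjusted p below 0.05) and 1 without untreated replicate 2 or treated replicate 2, and Col1a1 (log2 -0.40), Col3a1 (log2 -0.01) and Col4a1 (log2 -0.17) did not pass. Of 17 laminin and basement membrane genes 6 fell and 2 rose: Nid2 (log2 -0.74) and Lamb2 (log2 -0.69) fell with Lama5, and Lamb3 (log2 1.40) and the integrin Itga6 (log2 1.16) rose. Falls there numbered 3 without untreated replicate 1, 1 without treated replicate 1 and 3 without treated replicate 2, and rises 1 without untreated replicate 2, treated replicate 1 or treated replicate 2. On the centred scale 33 of the 41 matrix genes were highest on untreated replicate 2, the array that stood apart in interferon genes. However, 0 of the 41 were log2 0.5 or more above the other 3 arrays there, against 12 of 29 interferon genes.

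Some markers of other cell types also fell. Endothelial markers had 4 of 12 genes down and 0 up (2 down without treated replicate 1), and their sum over 14 genes was 1091 and 1165 in treated cells and 1781 and 1590 in untreated cells. Esm1, a proteoglycan of endothelial cells, read 3 and 5.7 in treated cells, against 128 and 71.7 in untreated cells (log2 -2.47, SE 0.40, adjusted p = 0.00364), and the receptor Tek read 11.3 and 11.7 in treated cells, against 48.2 and 36.7 in untreated cells (log2 -1.08, SE 0.19, adjusted p = 0.00565), while Vwf was below 16 on all 4 arrays. Smooth muscle and pericyte markers had 5 of 11 genes down and 0 up (1 without untreated replicate 1, untreated replicate 2 or treated replicate 2, and 2 without treated replicate 1). Their sum was 31086 and 31975 in treated cells and 37730 and 34591 in untreated cells, and Myh11, smooth muscle myosin, read 103 and 54 in treated cells, against 180.4 and 184 in untreated cells (log2 -1.12, SE 0.24, adjusted p = 0.0139), a call lost without untreated replicate 1, untreated replicate 2 or treated replicate 2. Preadipocyte markers had 2 of 13 genes down, Fap (log2 -0.65) and Klf2 (log2 -0.55), and Zfp423 up (0 down without untreated replicate 1 or treated replicate 1, 1 without either other array, and 5 down on the centred scale), with sums of 14203 and 15223 in treated cells and 19379 and 17239 in untreated cells. In such bulk samples fewer cells of a type and less RNA per cell cannot be told apart, and the part of these cells in the falls of matrix and inflammatory genes was not tested. The 5 skeletal muscle and 4 Schwann cell or neuron markers tested had 0 calls in limma, with 0 and 1 at an unadjusted p under 0.05.

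The remaining large falls came from other roles. Srgn, a granule proteoglycan of blood and endothelial cells, read 331 and 433 in treated cells, against 1079.9 and 1042 in untreated cells (log2 -1.45, SE 0.15, adjusted p = 0.000279). Apoe, a lipid-carrying apolipoprotein, read 961 and 1129.6 in treated cells, against 2499.9 and 2314 in untreated cells (log2 -1.20, SE 0.13, adjusted p = 0.000426). Mup3, a major urinary protein of a near-identical family, read 4 and 2.3 in treated cells, against 107 and 49 in untreated cells (log2 -2.23, SE 0.30, adjusted p = 0.00136), and Anxa8, an annexin, read 78.4 and 73.5 in treated cells, against 256 and 178 in untreated cells (log2 -1.32, SE 0.17, adjusted p = 0.000929). Spon1 (log2 -1.23), Stc1 (log2 -1.14), Fxyd6 (log2 -1.24), Mtss1 (log2 -1.21), Galnt16 (log2 -1.14) and Rsph1 (log2 -1.14) completed the 25 largest falls. Rsph1 lost its call without untreated replicate 1, untreated replicate 2 or treated replicate 2.

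Few proliferation and stress genes were called. Of 31 cell cycle genes 0 passed in limma and 1 had an unadjusted p under 0.05, with Mki67 at log2 -0.15 and Cdk1 at log2 -0.03. Of 18 p53 targets 0 passed in limma and 1 had an unadjusted p under 0.05, with Cdkn1a at log2 0.02. Of 23 ER chaperone and unfolded protein response genes 1 rose, Dnajb9 (log2 0.89), and of 21 ATF4 targets and serine synthesis genes 1 rose, Atf3 (log2 0.58), a call lost without untreated replicate 2 or treated replicate 2. On the centred scale 2 ER genes rose, and 5 ER genes, 3 ATF4 targets and 2 p53 targets fell. Of 17 genes of ERK feedback 3 rose and 1 fell. Dusp9, a phosphatase that inactivates ERK, read 259 and 310.3 in treated cells, against 61.9 and 36.9 in untreated cells (log2 2.22, SE 0.19, adjusted p = 8.35e-05), and Egr1, an immediate early factor, fell (log2 -0.72), a call lost without untreated replicate 1, untreated replicate 2 or treated replicate 1. On the centred scale 2 of these genes fell. Housekeeping genes had 2 rises in 12, the transferrin receptor Tfrc (log2 0.69) and Hprt (log2 0.65), 1 without untreated replicate 2 and 0 without treated replicate 2 by limma (2 at an unadjusted p under 0.05), while Actb (log2 -0.02), Tbp (log2 -0.11) and Polr2a (log2 -0.12) did not pass.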

How the data were processed

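The deposited intensity values, linear and positive (0.1 to 22736), covered 22690 probe sets on 8 Affymetrix mouse 430A_2 arrays. Per the labels' protocols, RNA was isolated with Trizol and copied with an oligo-dT primer into biotin-labelled cRNA. How the probe sets were summarized or scaled is not given in the sources used here. Values were used as log2(intensity + 16), and in parallel with each array centred on its median. GEO's platform annotation pairs 20380 probe sets with 1 gene, 691 with several and leaves 1555 unlisted. Each of 12393 genes was read from its probe set of highest mean, and the lowest 25% were left out, leaving 9294. limma 3.58.1 in R 4.3.3 was fitted over all 8 arrays (lmFit, eBayes, 4 residual degrees of freedom, no block), with Benjamini-Hochberg adjusted p under 0.05 as the threshold, and was tested on simulated data. With 2 arrays a group, array number limits the precision, and no detection calls were used. Genes named are the 25 largest rises and falls called on both scales, members of 56 gene lists, genes whose difference of responses passed on both scales, and 12 fat cell genes. The genes and lists were chosen with earlier results of these data known. Alternatives covered scaling, filter, probe sets, prior, pseudocount, block and leaving out each array.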

Additional observations from a re-analysis of the deposited data

Results flagged for a closer look

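The rosiglitazone response differed between sh-PRDM16 and sh-scr cells for 16 genes named in the text, by the difference of the 2 responses in limma at an adjusted p under 0.05 on the deposited scale. The difference, sh-PRDM16 minus sh-scr, was more negative for Ucp1 (log2 -3.15, adjusted p = 0.00943), Cidea (log2 -2.59, adjusted p = 0.00943), Lama5 (log2 -2.06, adjusted p = 0.00943) and Arhgap20 (log2 -1.22, adjusted p = 0.0331). It was more positive for Dgat2, at log2 1.61 (adjusted p = 0.00943), and these 5 also passed on median-centred arrays. The other 11 passed on the deposited scale alone, where the median difference over all genes was log2 0.33. Among lipid and peroxisomal genes they were Cidec (log2 1.24), Elovl3 (log2 1.48), Abcd2 (log2 1.39), Acot3 (log2 2.06) and Acot5 (log2 1.35). The others were Adh1 (log2 1.43), Cyp2f2 (log2 1.49), Oplah (log2 1.04), Orm1 (log2 1.42), Igfals (log2 1.67) and Dusp9 (log2 1.92), with adjusted p between 0.00943 and 0.0445 over the 11. Cyp2f2, Igfals and Orm1 had negative changes in both lines, larger in sh-scr cells (log2 -2.88, -2.83 and -1.56). The rest of the 11 had positive changes in both lines. With the drug, means in sh-PRDM16 and sh-scr cells were 4 and 2.5 for Igfals and 3161 and 4859 for Elovl3. Without it they were 28.8 and 115.7 for Igfals and 43 and 238 for Elovl3. For Cidec they were 3376 and 5631 with the drug and 228 and 950 without. On centred arrays the difference of Igfals was log2 1.35 (adjusted p = 0.0673), that of Cidec was log2 0.93 (adjusted p = 0.0606) and that of Abcd2 was log2 1.08 (adjusted p = 0.0606).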

How the results depend on the processing

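With 2 arrays a group, the number of genes called moved with single arrays and with the scaling. The direction of a call could not change with 1 array left out, because the groups of every called gene do not overlap. The same holds for the called genes among those named, counted below. Rosiglitazone called 1245 genes in sh-PRDM16 cells on the deposited scale, against 2264 on median-centred arrays, 2486 on quantile-normalized arrays and 2005 with a trended prior, and 641 to 1095 with 1 array left out. The rises numbered 444 to 968 with 1 array left out. The 308 falls became 917 on centred and 1256 on quantile-normalized arrays, 188 with no filter, 574 with the lowest 50% left out, 696 with a trended prior and 616 with a pseudocount of 64, and 113 to 264 with 1 array left out. Rises made up 75.3% of calls on the deposited scale, 59.5% on centred and 49.5% on quantile-normalized arrays. On centred arrays 1280 to 1418 genes were called with 1 array left out. For the difference of responses 62 genes on the deposited scale became 5 on centred arrays, 5 on quantile-normalized arrays, 0 in limma with no filter (2402 at an unadjusted p under 0.05), 1037 with the lowest 50% left out, 1297 with a trended prior, 13 with a pseudocount of 1, 800 with a pseudocount of 64, and 0 to 73 with 1 array left out. On centred arrays the 5 became 0 to 3 with 1 array left out. The difference for Ehhadh turned to log2 -0.60 (adjusted p = 0.037) with a pseudocount of 64, against log2 0.02 (adjusted p = 0.943) with 16. The cause of these changes was not tested. With the replicate number as a block, 1128 genes were called in sh-PRDM16 cells, and 86 for the difference on the deposited and 1 on the centred scale. Deviations of the same-numbered arrays correlated at r = 0.03, so the numbers were not taken to pair the samples. Of 233 named genes tested, 183 were called, and 45 of those lost the call without at least 1 array, 8 of them without exactly 1, and none of the 45 changed direction. The centred leave-out fits, the centred block and the counts of lists without each array were added after seeing the data. A fit leaving 1 array in a group assumes that it varies like the other groups. Dim genes, with untreated values below 16, have fold changes that depend on the pseudocount.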
